A study of Mus musculus with 27 samples.

Results

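The ileal response to the dioxin TCDD at 10 µg/kg was compared with vehicle in 6 of the 27 mice of the series, 3 labelled TCDD 10 µg/kg (mice 57, 58 and 59) and 3 labelled vehicle, dose 0 (mice 2, 3 and 4). All 6 were male C57BL/6 mice at postnatal day 56 that had been gavaged every 4 days for 28 days, with TCDD in sesame oil or with sesame oil alone. RNA-Seq was performed on scrapings of the distal ileum epithelium, with 1 library per mouse. The series also holds 7 further dose groups, the lowest at 0.01 µg/kg, of which 3 and 30 µg/kg are used here as the neighbouring doses. Animals were housed 4 per cage and fasted before necropsy, and the cage and the hour of necropsy of each mouse are not given in the sources used here. All mice were wild type, so no group separates effects of the aryl hydrocarbon receptor (AhR) from other effects of TCDD.

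TCDD is a persistent ligand of the AhR, a basic helix-loop-helix factor that moves to the nucleus, pairs with ARNT and binds dioxin response elements built around the core GCGTG. Its best known targets are the cytochromes P450 *Cyp1a1*, *Cyp1a2* and *Cyp1b1*, the repressor *Ahrr*, *Tiparp*, *Nqo1* and the *Ugt1a* glucuronosyltransferases. In the ileum, the epithelium takes up conjugated bile acids and nutrients, and tuft cells and the plasma cells of the lamina propria contribute their own transcripts to a scraping.

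Total counts on genes ranged from 12945559 to 14922271 per library. Of 46078 listed genes, 16741 passed the filter on low counts. A gene was called when its Benjamini-Hochberg adjusted p by edgeR's quasi-likelihood test over all tested genes was at most 0.05 and its fold change at least 1.5. Levels are given as CPM (counts relative to the library's total on genes, scaled by TMM), changes as log2 fold change ± SE with n = 3 mice per group, and adjusted p-values below are from that test. The tissue label was checked against its markers: the 11 absorptive enterocyte markers were all tested and summed to 13484 to 15748 CPM in vehicle mice and 13690 to 18097 CPM in treated mice, the ileal bile acid binding protein *Fabp6* lay between 1310 and 1810 CPM in all 6, and 4 of 7 pancreatic acinar markers had no count in any of the 6 mice. Smooth muscle markers summed to 237 to 353 CPM in vehicle mice but to 567 CPM in mouse 57, 705 CPM in mouse 58 and 286 CPM in mouse 59; the part of this difference in the results was not tested. Library index sequences were reused within the series, and the vehicle libraries carried an index at its earlier and the 10 µg/kg libraries at its later appearance. Within these 6 mice, effects of dose and of index use therefore cannot be told apart.

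TCDD at 10 µg/kg changed 423 genes, or 2.53% of those tested, of which 294 were induced (1.76% of tested genes) and 129 repressed (0.771%). The largest inductions were those of AhR targets and of circadian clock genes, and the largest repressions those of immunoglobulin genes. Of the induced genes 172 changed at least 2-fold and 13 at least 8-fold, and of the repressed genes 67 and 10. The 3 treated mice lay entirely above or below the 3 vehicle mice for 413 of the 423 called genes; over all tested genes, 11.5% lay entirely above and 11.8% entirely below. By the adjusted p alone, without the fold limit, 636 genes passed (3.8%). An unadjusted p under 0.05 was reached by 2905 of the 16741 tested genes, which is the background for such counts in the lists below. The median log2 fold change of all tested genes was -0.0031. With library index use as a covariate, which rests on the 1 µg/kg group where both uses occur, 48 genes were called. That group held 1 mouse at the earlier and 2 mice at the later use. In that fit 5 of the 6 AhR targets, 4 of the 5 clock output genes and 2 of the 5 PER and CRY genes described below remained induced. Of the tuft cell markers 1 of 8 was called, and of the B and plasma cell markers none of 4. Because the covariate rests on so few mice, this fit cannot decide which lists depend on index use. Without mouse 59 the count was 208, without vehicle mouse 4 it was 217 and without vehicle mouse 2 it was 226.

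**Figure D1:**
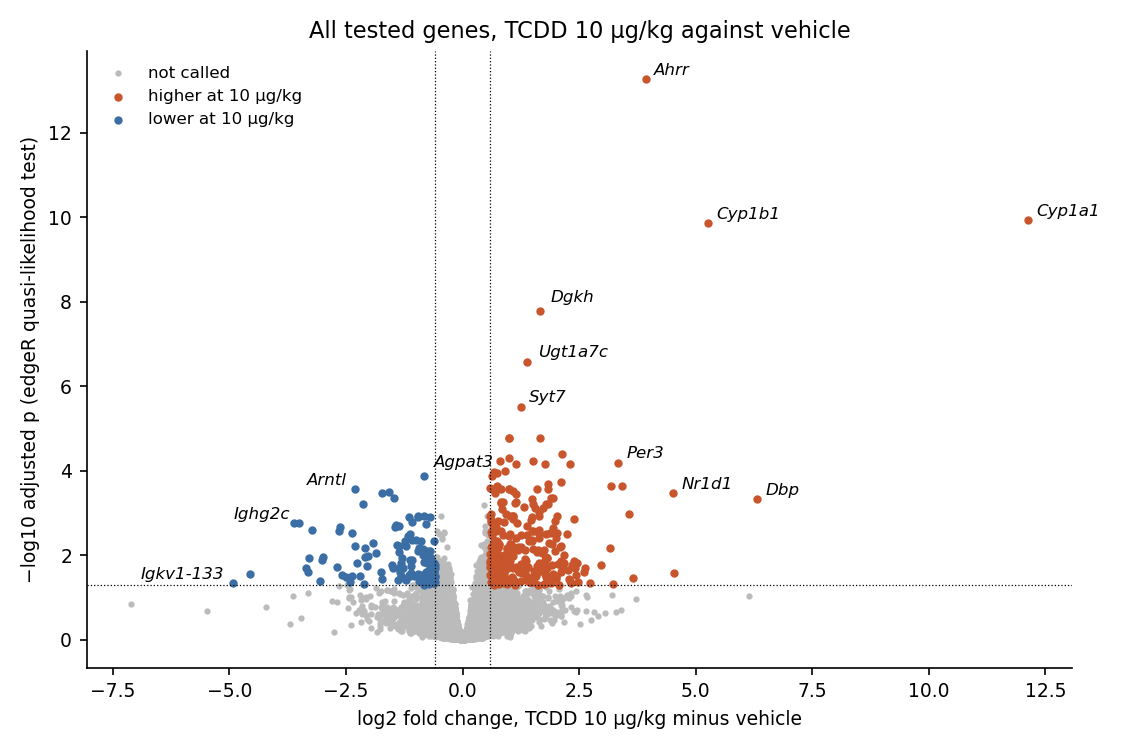
Each point is 1 of the 16741 tested genes, with the log2 fold change (TCDD 10 µg/kg minus vehicle) on the x axis and −log10 of the adjusted p on the y axis; dotted lines mark an adjusted p of 0.05 and a fold change of 1.5 in either direction. *Ahrr*, *Cyp1b1* and *Cyp1a1* stand above all other genes, *Dbp* and *Nr1d1* lie far to the right at lower significance, and the immunoglobulin gene *Igkv1-133* lies farthest to the left among called genes.

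*Cyp1a1*, a monooxygenase that oxidises planar aromatic compounds, was nearly silent in vehicle mice at 0.211, 0 and 0.138 CPM and reached 516, 529 and 647 CPM at 10 µg/kg. The vehicle libraries held 5 counts in all against 22995 in the treated libraries, a ratio of 4758 with an exact Poisson 95% interval of 2039 to 14653 that covers counting error only (adjusted p = 1.15e-10). *Cyp1b1*, a related monooxygenase, rose from 2.39, 1.25 and 1.11 CPM to 64.1, 65.1 and 53.7 CPM, a 38.3-fold induction (log2 5.26 ± 0.32, adjusted p = 1.35e-10). *Ahrr*, which competes with AhR for ARNT, rose from 2.53, 2.27 and 2.63 CPM to 43.7, 39.1 and 31.2 CPM, a 15.2-fold induction with the smallest adjusted p of all genes (log2 3.93 ± 0.16, adjusted p = 5.24e-14). In each of these 3 genes every treated mouse stood far above every vehicle mouse.

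Of 11 AhR target genes listed, 9 were tested and 6 were induced, with a median log2 fold change of 1.18 over the 9; *Cyp1a2*, the hepatic member, was among those not tested. The remaining induced members were glucuronosyltransferases, which attach glucuronic acid to phenols. *Ugt1a7c* rose from 32.4, 35.2 and 32.9 CPM to 84.8, 91 and 87.8 CPM, a 2.62-fold induction with little spread between mice (adjusted p = 2.6e-07). *Ugt1a6a* was induced 2.02-fold (adjusted p = 0.00118) and *Ugt1a6b* changed by 1.18 ± 0.24 on the log2 scale (adjusted p = 0.00628). *Tiparp*, an ADP-ribosyltransferase that limits AhR, had 41.9, 35 and 40.8 CPM in vehicle mice against 44, 68.2 and 55.1 CPM (log2 0.51 ± 0.15, adjusted p = 0.0641), and *Nqo1*, a quinone reductase, had a log2 fold change of 0.31 ± 0.20 (adjusted p = 0.468). Neither passed the test, although their treated mice all lay above the vehicle mice, as in 8 of the 9 (11.5% of all tested genes did). *Tiparp* was called without mouse 57 (log2 0.66, adjusted p = 0.0251). None of the 7 tested genes of the receptor complex was called by edgeR or by DESeq2, with 1 at an unadjusted p under 0.05, and *Ahr* itself was measured at 16.5 to 20.3 CPM in vehicle and 19.3 to 20.9 CPM in treated mice. None of 15 tested NRF2 antioxidant genes was called by edgeR, with 3 at an unadjusted p under 0.05 and 1 called by DESeq2.

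The promoter stretches of the 3 most induced AhR targets are shown because the dioxin response core can be seen in each. They hold the 250 bases before the RefSeq start (build GRCm38.p6), written 5′ to 3′ on the strand of the gene, at chr9:57697363-57697612 (+) for *Cyp1a1*, chr13:74292332-74292581 (−) for *Ahrr* and chr17:79715062-79715311 (−) for *Cyp1b1*. Capitals mark GCGTG or, on the other strand, CACGC.
Cyp1a1: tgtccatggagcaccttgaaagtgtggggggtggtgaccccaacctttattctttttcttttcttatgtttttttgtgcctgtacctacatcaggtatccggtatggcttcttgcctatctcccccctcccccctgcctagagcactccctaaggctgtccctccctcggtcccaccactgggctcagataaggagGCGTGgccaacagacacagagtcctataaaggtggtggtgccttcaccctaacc
Ahrr: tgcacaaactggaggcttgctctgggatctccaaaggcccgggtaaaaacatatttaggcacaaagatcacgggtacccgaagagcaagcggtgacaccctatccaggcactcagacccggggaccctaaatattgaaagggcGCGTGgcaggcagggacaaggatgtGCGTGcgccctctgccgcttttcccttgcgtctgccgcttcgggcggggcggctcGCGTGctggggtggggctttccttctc
Cyp1b1: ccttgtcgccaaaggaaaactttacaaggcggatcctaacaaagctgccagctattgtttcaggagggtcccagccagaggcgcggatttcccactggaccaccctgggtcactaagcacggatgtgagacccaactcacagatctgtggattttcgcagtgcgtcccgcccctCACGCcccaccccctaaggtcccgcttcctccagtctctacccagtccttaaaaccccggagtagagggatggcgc
The *Cyp1a1* stretch held 1 core, which began 54 bases before the start, the *Ahrr* stretch 3, beginning 107, 82 and 27 bases before it, and the *Cyp1b1* stretch 1, beginning 76 bases before it. The core is common: 28.2% of 32851 promoter stretches of this length held it on either strand. A stretch was matched to 11357 tested genes, of which 47.5% held the core, and to 212 of the 294 induced genes, of which 43.4% held it. The core was thus no more frequent among the matched induced genes than among the matched tested genes. These shares were not tested against each other. The stretches of *Ugt1a6a* and *Ugt1a7c* held none and that of *Tiparp* held 1.

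The *Ugt1a* locus rose over most of its length. *Ugt1a7c* spans chr1:88095062-88220002 (GRCm38, GENCODE M21, plus strand), and 15 annotated genes within that span were tested, of which 11 were induced and none repressed. Of 6 *Ugt1a* genes tested, 5 were induced; besides those above, *Ugt1a5* rose 3.55-fold and *Ugt1a2* 3.01-fold from about 1 CPM. The exception was *Ugt1a1*, the bilirubin-conjugating form, which had 33.1, 38.9 and 26.9 CPM in vehicle mice and 29.3, 29.8 and 41.1 CPM in treated mice (log2 0.02 ± 0.15, adjusted p = 0.972). Of 8 unprocessed pseudogenes in the same span, 6 were induced, led by *Gm15374* from 1.69 to 6.28 CPM on average (log2 1.89 ± 0.29, adjusted p = 0.000436) and *Gm15372* from 2.16 to 7.36 CPM (log2 1.77 ± 0.23, adjusted p = 6.8e-05). These genes share terminal exons and overlap on the same strand, so the division of reads among them is uncertain. *Dnajb3*, which lies on the opposite strand within the span, had a log2 fold change of -0.85 ± 0.26 (adjusted p = 0.0672).

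A smaller share of the other genes of xenobiotic handling was called. Of 22 tested cytochromes P450 and their receptors outside that list, 3 were induced: *Cyp2u1*, a fatty acid hydroxylase, from 24.5, 28.5 and 21.2 CPM to 116, 72.8 and 94.6 CPM (3.82-fold, adjusted p = 0.00044), *Cyp27a1*, the sterol 27-hydroxylase, 2.6-fold (adjusted p = 0.00338), and *Cyp2j6* 1.56-fold (adjusted p = 0.000275). Of 27 conjugating enzymes tested, the carboxylesterase *Ces1f* was the only member called (1.78-fold, adjusted p = 0.000263). Of 13 ABC transporters tested, 1 was called: *Abcc2*, an apical exporter of glucuronide and glutathione conjugates, rose from 91.4, 145 and 98.2 CPM to 350, 326 and 643 CPM, 3.94-fold (adjusted p = 0.00156). Mouse 59 had the highest *Abcc2* level, and the groups did not overlap.

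The circadian clock genes formed the other large group. In the core loop, CLOCK or NPAS2 with ARNTL (BMAL1) activate the PER, CRY and REV-ERB genes, whose products repress ARNTL and CLOCK activity, and the PAR bZip factors DBP, TEF and HLF carry the rhythm to output genes against the repressor NFIL3. At 10 µg/kg TCDD the output genes and most PER and CRY genes were induced, while *Arntl*, *Npas2*, *Nfil3* and *Cry1* were repressed. All 6 tested output genes were called, 5 induced and 1 repressed, with a median log2 fold change of 3.31. Among 11 tested PER and CRY genes and their partners, 5 were induced and 1 repressed (median 0.67), and among 5 tested activators, 2 were repressed (median -0.37).

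*Dbp* rose from 0.634, 0.587 and 0.346 CPM to 40.2, 30.4 and 55.8 CPM, a 79.5-fold induction and the largest after *Cyp1a1* (log2 6.31 ± 0.98, adjusted p = 0.00046). *Nr1d1*, which encodes REV-ERBα, rose from 5.28, 11.4 and 2.77 CPM to 152, 119 and 172 CPM, 22.9-fold (adjusted p = 0.00034), and its paralog *Nr1d2* rose 9.13-fold (adjusted p = 0.000226). In all of these the lowest treated mouse stood several-fold above the highest vehicle mouse. *Tef* rose from 12.2, 11.6 and 7.61 CPM to 106, 89 and 144 CPM, 10.8-fold (adjusted p = 0.000234). *Hlf* was induced 4.02-fold from under 1 CPM (adjusted p = 0.0314), and it was called in 0 of the 6 fits that left out a mouse, with a log2 fold change of 1.93 to 2.07 in them. *Nfil3* fell from 30.5, 26.5 and 23.7 CPM to 7.61, 5.87 and 2.16 CPM, a 5.14-fold repression (adjusted p = 0.00302). Reads of *Dbp* and *Nr1d1* overlap *Sphk2* and *Thra* on the opposite strand, and whether counting used strand is not given in the sources used here.

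*Ciart* rose from 0.422, 0.44 and 0.277 CPM to 3.29, 2.97 and 7.56 CPM, 11.9-fold (adjusted p = 0.00107), and encodes a further repressor of CLOCK with ARNTL. *Per3* rose from 5.98, 5.35 and 6.64 CPM to 63.1, 44.9 and 73.7 CPM, 10.1-fold (adjusted p = 6.36e-05). *Per2* was induced 4.39-fold (adjusted p = 4.01e-05), *Cry2* 2.8-fold (adjusted p = 0.00268) and *Per1* 2.31-fold (adjusted p = 0.0211; called in 1 of the 6 fits that left out a mouse). The vehicle mice were tightly grouped for all PER genes, and mouse 59 was the highest of the treated mice for *Per2*, *Per3*, *Cry2* and *Ciart*. *Cry1* moved the other way, from 43, 43.4 and 51.4 CPM to 13.8, 21 and 17.4 CPM, a 2.63-fold repression (adjusted p = 0.00558). *Arntl* fell from 56.7, 65.3 and 59.1 CPM to 12.8, 14.2 and 9.33 CPM, 4.97-fold (adjusted p = 0.000265), and *Npas2* from 86.9, 87.9 and 70.3 CPM to 31, 31.2 and 32.9 CPM, 2.58-fold (adjusted p = 0.00832). *Clock* itself did not pass the test (log2 -0.10 ± 0.11, adjusted p = 0.717). *Cipc*, an inhibitor of CLOCK named after its values were seen, was induced 3.17-fold (adjusted p = 1.66e-05). Every clock gene above is a transcript that varies with the hour of the day, and the contribution of the time of necropsy was not tested.

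The promoter stretches of *Ciart* and *Per3* are shown for the elements through which the activators and the PAR bZip factors act. They hold the 250 bases before the start (RefSeq, GRCm38.p6) at chr3:95882229-95882478 (−) and chr4:151044666-151044915 (−), 5′ to 3′ on the strand of the gene. Capitals mark the E-box CACGTG in *Ciart* and the D-box TTATGTAA in *Per3*, each searched on both strands.
Ciart: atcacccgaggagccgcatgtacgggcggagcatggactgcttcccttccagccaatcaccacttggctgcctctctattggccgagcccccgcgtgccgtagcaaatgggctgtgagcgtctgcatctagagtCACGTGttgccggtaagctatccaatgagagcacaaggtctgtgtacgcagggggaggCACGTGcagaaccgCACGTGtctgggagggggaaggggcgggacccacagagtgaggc
Per3: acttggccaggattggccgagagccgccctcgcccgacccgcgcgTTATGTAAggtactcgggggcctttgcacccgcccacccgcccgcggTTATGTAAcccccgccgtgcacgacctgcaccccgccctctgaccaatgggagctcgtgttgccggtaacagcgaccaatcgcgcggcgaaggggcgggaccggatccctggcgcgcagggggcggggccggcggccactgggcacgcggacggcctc
The *Ciart* stretch held 3 E-boxes, beginning 116, 58 and 44 bases before the start, against 6.02% of all 32851 stretches with at least 1. Of the genes with a matched stretch, 9.47% of those tested, 11.8% of those induced and 12.2% of those repressed held an E-box. These shares were not tested against each other. The *Per3* stretch held 2 D-boxes, beginning 205 and 158 bases before the start, against 0.819% of all stretches. The stretches of *Dbp*, *Nr1d1*, *Nr1d2*, *Hlf*, *Nfil3*, *Arntl* and *Npas2* held neither element. Those of *Tef* and of *Cry1*, which was repressed, held 1 E-box each, as did 1 stretch of *Per1*. The *Ciart* and *Per3* stretches also held 1 AhR core each, which is not capitalised here.

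**Figure D2:**
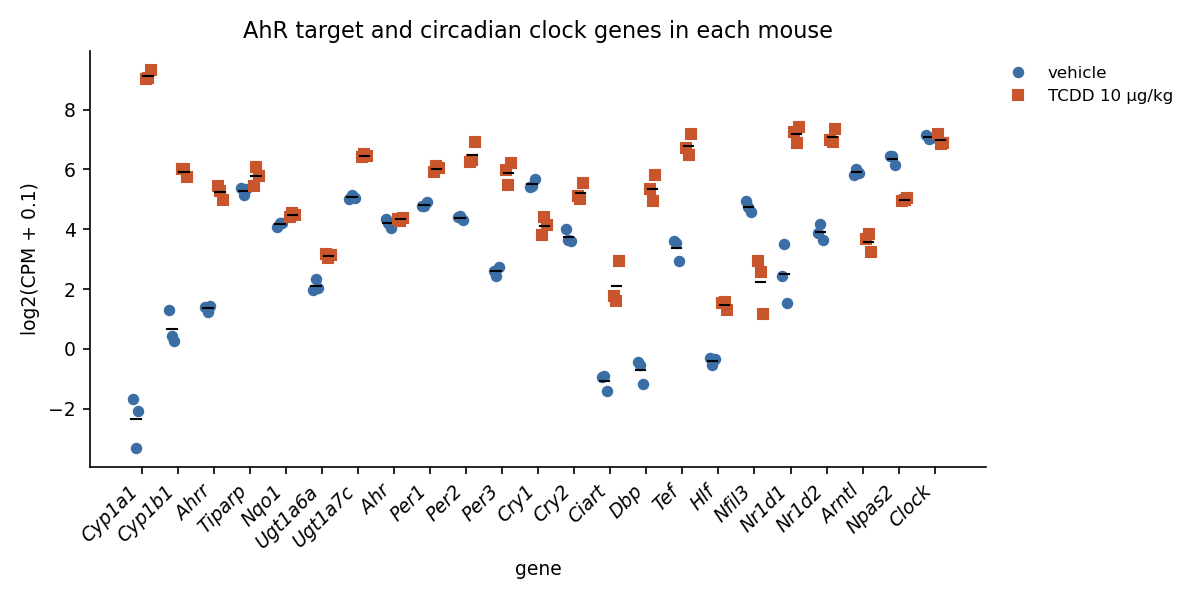
The level of each AhR and clock gene is plotted in each mouse as log2(CPM + 0.1), with vehicle mice as circles, treated mice as squares and black lines for the mean of the 3 log2 values. *Cyp1a1*, *Cyp1b1*, *Ahrr*, *Dbp* and *Nr1d1* show the widest gaps between the groups, *Cry1*, *Nfil3*, *Arntl* and *Npas2* lie lower in treated mice, and *Ahr*, *Nqo1* and *Clock* lie close together.

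The study asked how TCDD alters the enterohepatic circulation of bile acids, in which the ileum takes up bile acids through SLC10A2, carries them on FABP6, exports them through SLC51A and SLC51B and signals to the liver through FXR and FGF15. At 10 µg/kg none of the 10 tested genes of this list was called by edgeR, with 3 at an unadjusted p under 0.05 and none called by DESeq2, and the list's median log2 fold change was 0.05. *Slc51a* came closest: it had 448, 500 and 459 CPM in vehicle mice and 586, 608 and 701 CPM in treated mice, a difference that passed the adjusted p (0.0193) but not the fold limit (log2 0.43 ± 0.10). *Slc10a2* had 385, 314 and 377 CPM against 415, 524 and 546 CPM (log2 0.47 ± 0.24, adjusted p = 0.329). *Fgf15* had 54.9, 69.5 and 47.9 CPM against 23.1, 33.9 and 26.8 CPM (log2 -1.04 ± 0.55, adjusted p = 0.346). The groups did not overlap for any of these 3 genes. Of the 10 genes in the list, 4 lay entirely above and 1 entirely below (11.5% and 11.8% of all tested genes did). The changes of *Slc10a2* and *Fgf15* were small beside the spread shared by all groups. When the spread was taken from the 6 mice alone, *Fgf15* was called (log2 -1.03, adjusted p = 0.0121). With index use as a covariate its log2 fold change was -3.97 (adjusted p = 0.038), in a fit that rests on the few mice at 1 µg/kg. *Fabp6* (log2 -0.19 ± 0.25), *Slc51b* (-0.10 ± 0.13) and the FXR gene *Nr1h4* (0.10 ± 0.16) had adjusted p-values of 0.764, 0.754 and 0.808, and *Nr0b2* was too low to be tested.

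Nutrient and ion handling genes were mostly not called, with changes in a few transporters. Of 19 tested genes of sugar digestion and transport, the apical fructose transporter *Slc2a5* was the only one called, rising from 28.1, 28 and 23.7 CPM to 80.4, 82.9 and 115 CPM (3.48-fold, adjusted p = 0.0335; called in 1 of the 6 fits that left out a mouse). *Slc2a2*, the basolateral hexose transporter, had 5.56, 13.2 and 6.58 CPM against 23.4, 40.3 and 55.9 CPM and did not pass the test (log2 2.24 ± 0.72, adjusted p = 0.0866). *Sis*, the sucrase-isomaltase, and *Slc5a1*, the sodium-glucose cotransporter, had log2 fold changes of 0.65 ± 0.24 and 0.61 ± 0.21 (adjusted p = 0.137 and 0.11). The treated mice stood above the vehicle mice in all 4 genes, as in 8 of the 19 (11.5% of all tested genes did). In the fit of the 6 mice alone the last 3 were called, with log2 fold changes of 2.25 for *Slc2a2*, 0.65 for *Sis* and 0.62 for *Slc5a1*, and *Slc2a2* was also called by DESeq2 (adjusted p = 0.043). Of 26 tested genes of amino acid and peptide handling, the proline transporter *Slc6a7* was called, rising from 15.9, 14.8 and 15.4 CPM to 33.2, 28 and 30.2 CPM (1.98-fold, adjusted p = 1.66e-05), while the peptide transporter *Slc15a1* did not pass (log2 0.85 ± 0.33, adjusted p = 0.158).

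Of 26 tested genes of fat and cholesterol absorption, 2 were induced and 1 repressed. *Fabp1*, a cytosolic fatty acid binding protein, rose from 2.18, 5.57 and 1.94 CPM to 12.5, 17.7 and 12.1 CPM (4.39-fold, adjusted p = 0.021). *Agpat3*, an acyltransferase of phospholipid synthesis, rose from 30.4, 38.5 and 29.6 CPM to 57.3, 63 and 63.3 CPM (1.87-fold, adjusted p = 0.0001). *Pla2g12b*, needed for lipoprotein secretion, fell 1.77-fold (adjusted p = 0.0144). None of 16 fatty acid synthesis genes and none of 28 PPARA target genes was called by edgeR or DESeq2, with 1 and 10 at an unadjusted p under 0.05. The ferroportin gene *Slc40a1*, which exports iron across the basolateral membrane, fell from 172, 128 and 183 CPM to 71.8, 61.6 and 46.8 CPM (2.68-fold, adjusted p = 0.00195) and was the only one of 14 tested genes of iron and vitamin B12 uptake to be called. The serotonin reuptake transporter *Slc6a4* was induced 1.66-fold (adjusted p = 0.00455) and was the only 1 of 12 in its list.

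Among the called genes of highest level, the sulfate transporter *Slc13a1* rose from 484, 442 and 573 CPM to 829, 740 and 893 CPM (1.64-fold, adjusted p = 0.0464). The actin-severing protein gene *Scin* (1.94-fold) and *Fam102a* (2.01-fold) were also among the induced genes of highest level. Of the repressed genes of highest level, the sodium-phosphate cotransporter *Slc34a2* fell from 1477, 1611 and 1500 CPM to 671, 718 and 772 CPM (2.12-fold, adjusted p = 0.0129). The membrane mucin *Muc13* fell 1.51-fold and the monocarboxylate transporter *Slc5a8* 1.55-fold. *Slc13a1* kept its call in 0 of the 6 fits that left out a mouse, with a log2 fold change of 0.63 to 0.84 in them, and *Muc13* and *Slc5a8* kept it in 2 each.

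**Figure D3:**
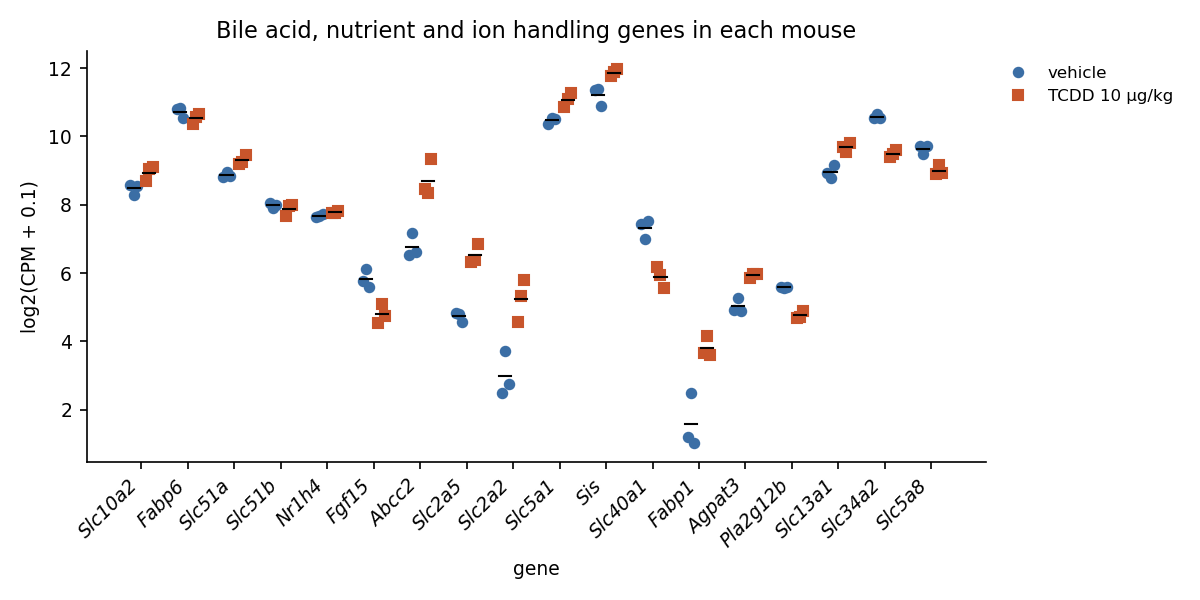
The level of each bile acid, nutrient and ion handling gene is plotted in each mouse as log2(CPM + 0.1), with vehicle mice as circles, treated mice as squares and black lines for the mean of the 3 log2 values. *Slc51b*, *Fabp6* and *Nr1h4* overlap or lie close together in both groups, whereas *Slc40a1* and *Slc34a2* lie lower and *Slc2a5* and *Abcc2* higher in treated mice.

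Tuft cell markers were induced almost as a whole list. Tuft cells are rare chemosensory cells of the epithelium that use TRPM5 for taste-like signalling and depend on the factor POU2F3. Of 10 listed markers 9 were tested and 8 were induced (1.76% of all tested genes were), with a median log2 fold change of 1.63; *Gfi1b* was not called (adjusted p = 0.422) and *Il25* was too low to be tested. *Dclk1*, the kinase that defines these cells, rose from 17.5, 20.3 and 13.2 CPM to 57.3, 29 and 64.7 CPM (2.96-fold, adjusted p = 0.000779). *Trpm5* rose from 13, 14.7 and 10.2 CPM to 42.3, 22.2 and 52.8 CPM (3.1-fold, adjusted p = 0.00115), and *Avil* from 6.12, 7.41 and 6.16 CPM to 28.1, 12.8 and 29.2 CPM (3.55-fold, adjusted p = 0.00061). In all of these mice 57 and 59 were high and mouse 58 stood between them and the vehicle mice.

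*Sh2d6* (4.07-fold), *Pou2f3* (3.79-fold), *Alox5ap* (3.47-fold) and *Ptgs1* (2.02-fold) followed the same order of mice in part: for *Pou2f3* mouse 58, at 1.12 CPM, lay within the vehicle range of 0.277 to 1.55 CPM. Summed over the list, the markers gave 64.6, 68.6 and 52.4 CPM in vehicle mice and 210, 105 and 241 CPM in mice 57, 58 and 59. Without mouse 57 the number induced was 6, without mouse 59 it was 6, and without mouse 58 it was 8. Mice 57 and 58, but not mouse 59, were those with high smooth muscle markers, so the order of the treated mice differed between these lists. Further called genes, named after their values were seen, had their lowest treated value in mouse 58: *Siglecf* (3.94-fold), *Sh2d7* (3.79-fold), *Sucnr1* (4.25-fold), *Il17rb* (2.78-fold), *Gnat3* (5.25-fold) and *Chat* (4.2-fold), of which *Chat* lay below all vehicle mice in mouse 58 and kept its call in 1 of the 6 fits that left out a mouse. In a scraping, a change in the number of cells of a type and a change in RNA per cell cannot be told apart.

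*Cpa3*, a carboxypeptidase of mast cell granules, was among the 10 largest inductions, from 0.774, 0.66 and 0.208 CPM to 5.02, 1.52 and 2.78 CPM (5.58-fold, adjusted p = 0.0431), and kept its call in 1 of the 6 fits that left out a mouse. *Ms4a2* and *Fcer1a*, subunits of the high-affinity IgE receptor, and the factor *Gata2* were also called and are named after their values were seen. *Ms4a2* had 0.141, 1.03 and 0.415 CPM in vehicle mice and 5.17, 1.12 and 2.39 CPM in treated mice (adjusted p = 0.0297). *Fcer1a* had 6 counts in all in vehicle mice against 56 in treated mice (adjusted p = 0.0466). *Gata2* rose 4.33-fold (adjusted p = 0.0253). These genes rest on few reads, and mouse 57 was the highest for all 4. Of the fits that left out a mouse, *Ms4a2* and *Fcer1a* kept their call in 2 each and *Gata2* in 3.

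Immunoglobulin genes were the most repressed. Plasma cells of the lamina propria secrete dimeric IgA, joined by the J chain, which the epithelium carries into the lumen. *Igha*, the IgA heavy chain constant gene, fell from 1567, 1260 and 1166 CPM to 629, 708 and 490 CPM (2.19-fold, adjusted p = 0.0317). *Igkc*, the kappa constant gene, fell from 550, 446 and 404 CPM to 185, 242 and 152 CPM (2.42-fold, adjusted p = 0.0202). *Jchain* fell 2.33-fold (adjusted p = 0.0375) and *Mzb1*, a chaperone of antibody secretion, 2.5-fold (adjusted p = 0.0152). No treated mouse reached the lowest vehicle mouse for any of them. These were 4 of the 10 tested B and plasma cell markers (median -0.36; 0.771% of all tested genes fell), whereas the B cell surface genes *Ms4a1* and *Cd79a* had log2 fold changes of -0.04 each and were not called. Without mouse 57, mouse 59 or vehicle mouse 2 none of the 4 was called, without vehicle mouse 3 it was 1 and without vehicle mouse 4 it was 2, while the log2 fold change of *Igha* stayed between -1.25 and -0.99.

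Among the 4 tested IgG constant genes, 2 fell. *Ighg2b* fell from 45.5, 60.9 and 14.4 CPM to 5.49, 9.11 and 4.86 CPM (6.14-fold, adjusted p = 0.00214) and *Ighg2c* from 3.94, 5.87 and 1.32 CPM to 0.314, 0.462 and 0.154 CPM (11.4-fold, adjusted p = 0.00169), and both kept their call whichever mouse was left out. The other IgG genes, *Ighg1* (log2 -1.30, adjusted p = 0.251) and *Ighg3* (-0.90, adjusted p = 0.622), were not called. *Ighm* (log2 0.16, adjusted p = 0.912) and *Ighd* (0.47, adjusted p = 0.69), carried by naive B cells, were not called. Of 13 annotated constant genes, 11 were tested and 4 repressed. Of 218 annotated variable segments, 146 passed the filter and 10 were repressed, with none induced. Summed, the variable segments gave 576, 449 and 410 CPM in vehicle mice and 187, 254 and 167 CPM in treated mice. Variable segments differed widely between vehicle mice. *Igkv1-133*, the largest repression named, had 4.51, 0.513 and 11.1 CPM in vehicle mice and 0, 0.462 and 0 CPM in treated mice, so that 1 vehicle mouse was close to a treated mouse. It kept its call in 1 of the 6 fits that left out a mouse, with a log2 fold change of -9.26 to -3.84 in them. *Ighv1-12* (12.2-fold), *Igkv4-53* (9.82-fold), *Igkv19-93* (8.12-fold), *Ighv1-19* (6.48-fold) and *Ighv1-77* (6.3-fold) were the others among the 10 largest repressions, and reads of similar segments may be shared. With at least 10 counts required in every mouse, 1 variable segment was called.

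The remaining 2 of the 10 largest repressions were not immunoglobulin genes. *B3galt5*, a galactosyltransferase, fell from 121, 57.9 and 273 CPM to 9.1, 26.7 and 12 CPM (9.36-fold, adjusted p = 0.00258). *Ccl20*, the chemokine of the follicle epithelium that attracts CCR6-bearing lymphocytes, fell from 4.79, 9.54 and 6.37 CPM to 0.784, 0.924 and 0.848 CPM (7.99-fold, adjusted p = 0.0112). Of 14 T lymphocyte markers tested, *Cd8b1* was called (4.05-fold lower, adjusted p = 0.0105), and *Cd3e* was not (log2 -0.36 ± 0.20, adjusted p = 0.386). Of 10 myeloid markers tested, *Itgam*, an integrin subunit of neutrophils and macrophages, fell 1.73-fold (adjusted p = 0.0132), while *Csf1r* had a log2 fold change of -0.05 ± 0.19 (adjusted p = 0.925). The interleukin gene *Il1b* and the chemokine receptors *Ccr4* and *Cxcr3*, named after their values were seen, fell 5.18-, 3.6- and 3.31-fold (adjusted p = 0.0306, 0.00904 and 0.0371), and kept their call in 2, 5 and 1 of the 6 fits that left out a mouse.

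Of 20 antimicrobial genes tested, 2 were repressed, both part of oxidant defence. *Nos2*, the inducible nitric oxide synthase, fell from 870, 963 and 1068 CPM to 535, 747 and 522 CPM (1.61-fold, adjusted p = 0.0379), and *Duoxa2*, the maturation factor of dual oxidase, fell from 171, 106 and 207 CPM to 57.9, 96.7 and 40.6 CPM (2.48-fold, adjusted p = 0.0317). Neither was called without mouse 57, mouse 59 or vehicle mouse 2 or 4. The lectins *Reg3b* and *Reg3g* had log2 fold changes of -0.49 ± 0.25 and -0.72 ± 0.28 and did not pass the test (adjusted p = 0.32 and 0.166), and *Lyz1* of Paneth cells had -0.15 ± 0.37 (adjusted p = 0.889). Of 32 interferon-stimulated genes, *Ifit1bl1* was called (1.86-fold lower, adjusted p = 0.0431), but in 1 of the 6 fits that left out a mouse. Of 9 tested genes of MHC class II presentation none was called by edgeR or DESeq2, with 6 at an unadjusted p under 0.05; *H2-Aa* had 479 to 509 CPM in vehicle mice and 313 to 397 CPM in treated mice (adjusted p = 0.0938). Of 23 junction genes, *Cldn8*, a claudin that seals against cations, was called, falling from 6.76, 9.39 and 5.12 CPM to 2.51, 1.39 and 1.77 CPM (3.76-fold, adjusted p = 0.00513), and the pore-forming *Cldn2* was not (adjusted p = 0.689).

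Stress and hormone responses were limited to a few members. The glucocorticoid-responsive genes *Fkbp5* (47.9, 61.3 and 65.8 CPM to 118, 154 and 183 CPM, 2.6-fold, adjusted p = 0.00206) and *Klf9* (2-fold, adjusted p = 0.000265) were 2 of 16 tested, and *Tsc22d3* of the same list had a log2 fold change of 0.30 ± 0.31 (adjusted p = 0.68). Of 27 genes of the unfolded protein response, *Herpud1* (1.94-fold) and *Trib3* (2.6-fold) were induced and *Asns* was repressed 1.91-fold, whereas the chaperone *Hspa5* was not called (adjusted p = 0.636). Without vehicle mouse 2 neither *Herpud1* nor *Trib3* was called, and *Trib3* was called in 1 and *Asns* in 2 of the 6 fits that left out a mouse. *Dusp6*, a phosphatase of ERK, was the only one of 20 immediate early genes called (2.06-fold lower, adjusted p = 0.0301), and *Fos* and *Egr1* had adjusted p-values of 0.662 and 0.59. *Dusp6* was called in 2 of the 6 fits that left out a mouse. None of 22 heat shock chaperones was called by edgeR or DESeq2, with 4 at an unadjusted p under 0.05. Of 13 genes of the Wnt pathway, *Rnf43*, which removes Wnt receptors, was called (1.54-fold, adjusted p = 0.0028), and the stem cell gene *Lgr5* had a log2 fold change of -0.78 ± 0.35 (adjusted p = 0.248).

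**Figure D4:**
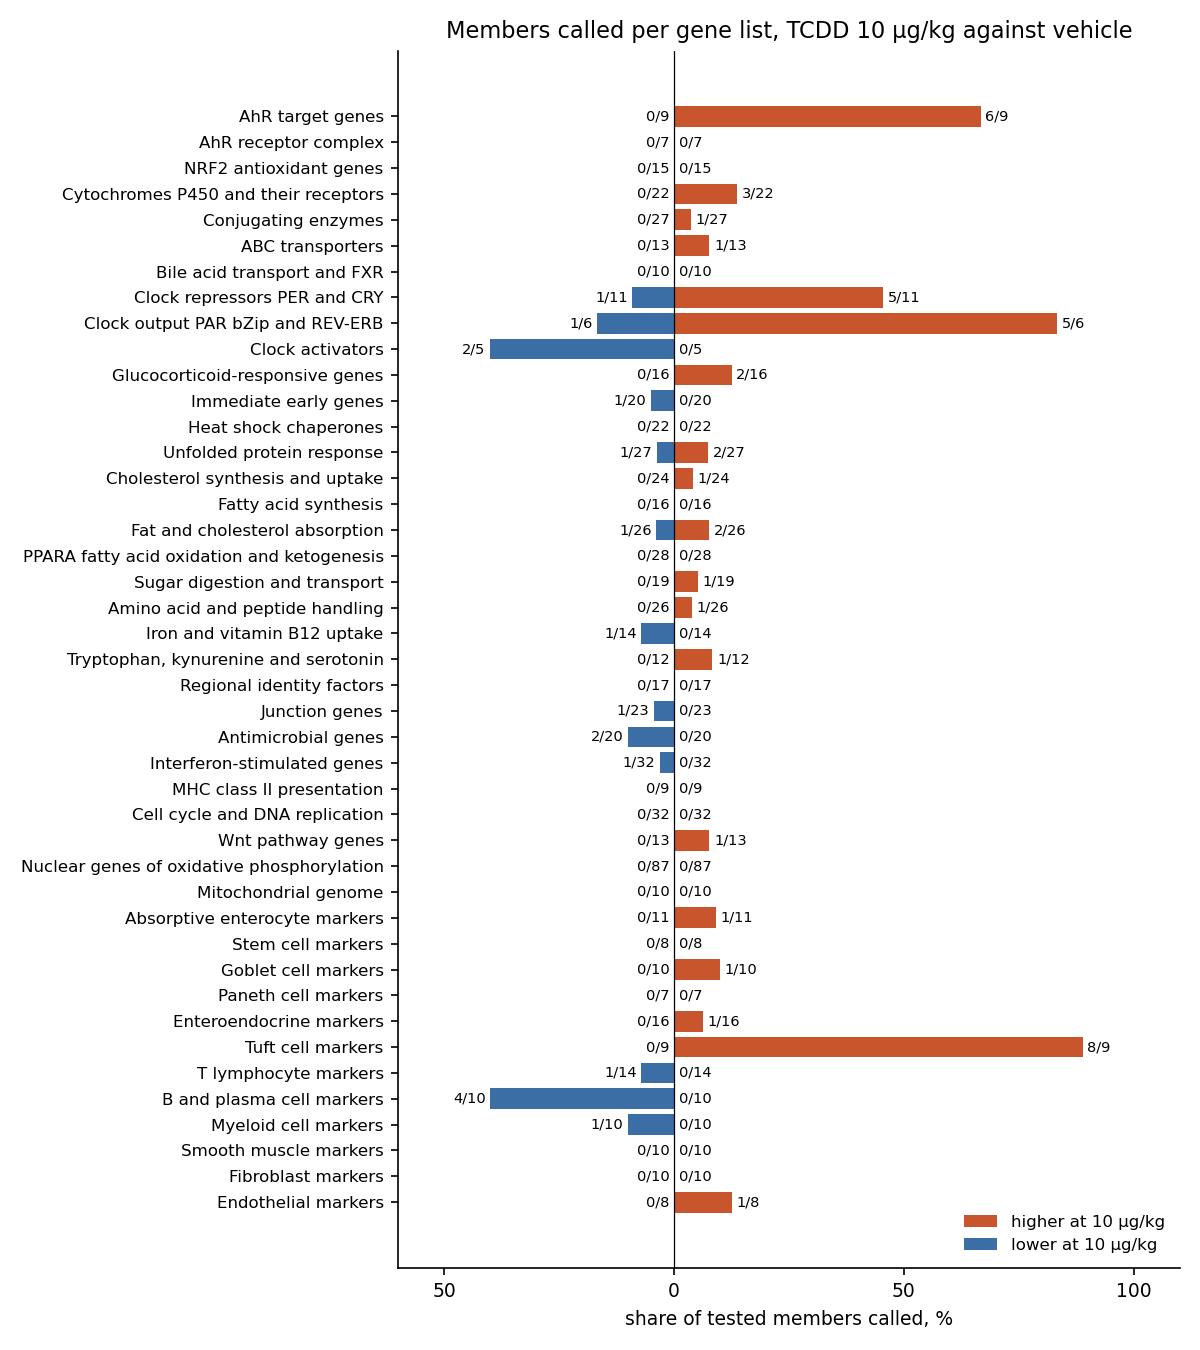
For each pathway and cell type list with at least 5 tested members, without the clock score list and the annotation classes, bars give the percentage of tested members called higher (right) or lower (left) at 10 µg/kg, with the number called over the number tested. AhR targets (6 of 9), clock output genes (5 of 6) and tuft cell markers (8 of 9) have the largest shares of induced members among the lists drawn, and B and plasma cell markers (4 of 10) and clock activators (2 of 5) those of repressed members.

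Smooth muscle markers had a higher median log2 fold change (1.87) than the tuft markers, but none of the 10 was called by edgeR or DESeq2, although all 10 had an unadjusted p under 0.05. *Myh11*, the smooth muscle myosin heavy chain, had 56.7, 11.1 and 24 CPM in vehicle mice and 141, 189 and 24.7 CPM in treated mice, so that mouse 59 lay within the vehicle range (adjusted p = 0.193). Of 8 endothelial markers, *Vwf* was called, rising from 7.11, 3.67 and 4.71 CPM to 13.2, 14.4 and 9.33 CPM (2.38-fold, adjusted p = 0.0164), with its lowest treated value in the same mouse, and *Pecam1* was not (adjusted p = 0.175). *Vwf* was called in 2 of the 6 fits that left out a mouse. The fibroblast markers summed to 148 to 290 CPM in vehicle and 139 to 313 CPM in treated mice with 0 of 10 called by edgeR or DESeq2 and 1 at an unadjusted p under 0.05. The part of these other tissue layers in the changes above was not tested.

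Goblet and enteroendocrine cells gave small changes. Of 10 goblet cell markers, *Capn9* was called (1.66-fold, adjusted p = 0.000114), and 9 had all treated mice above all vehicle mice (11.5% of all tested genes did). *Muc2*, the gel-forming mucin, had 7313, 7683 and 8479 CPM against 10510, 9734 and 10745 CPM, which passed the adjusted p (0.0288) but not the fold limit (log2 0.40 ± 0.10). The same held for *Tff3* (log2 0.38, adjusted p = 0.0122), *Clca1* (0.47, adjusted p = 0.0372) and *Spdef* (0.44, adjusted p = 0.0426), named after their values were seen. *Spink4* of this list had -0.03. Summed, the goblet cell markers gave 22018 to 24778 CPM in vehicle mice and 28109 to 32869 CPM in treated mice. Of 16 enteroendocrine markers *Chgb* was called (1.58-fold, adjusted p = 0.0312), *Chga* was not (adjusted p = 0.247), and 10 had all treated mice above all vehicle mice. *Chgb* was called in 2 of the 6 fits that left out a mouse.

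Set against the neighbouring doses in the same fit, 7 genes (0.0418% of tested) differed between 10 and 3 µg/kg and all 7 were higher at 10 µg/kg. All 7 were also among the 423 genes called against vehicle, which is 1.65% of these. The *Cyp1a1* mean was 45.4 CPM at 3 µg/kg, rising to 564 CPM in the treated mice and 1741 CPM at the highest dose (log2 3.63 ± 0.40 for 10 minus 3, adjusted p = 2.25e-05). *Cyp1b1* averaged 5.08 CPM at 3 µg/kg (log2 3.56 ± 0.28, adjusted p = 3.33e-08) and *Ahrr* 5.88 CPM (log2 2.69 ± 0.14, adjusted p = 2.68e-11). The other 4 were *Dgkh*, a diacylglycerol kinase (log2 0.98, adjusted p = 0.000209), *Ildr1*, a tricellular junction protein gene (0.93, adjusted p = 0.00625), the proline transporter *Slc6a7* (0.60, adjusted p = 0.0434) and *2610035D17Rik* (1.14, adjusted p = 0.00744). *Dgkh* rose against vehicle from 12.7, 10.6 and 12.3 CPM to 39.3, 37.5 and 35.6 CPM, with an adjusted p of 1.61e-08, and *Ildr1* from 20.3, 25.8 and 26.9 CPM to 53.9, 54.8 and 53.1 CPM. Without mouse 58 the count between 10 and 3 µg/kg was 18. No clock gene named above differed between 10 and 3 µg/kg: the difference in *Dbp* was 0.16 ± 0.62 on the log2 scale (adjusted p = 0.991), a standard error that leaves room for differences of over 2-fold.

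Between 30 and 10 µg/kg, 57 genes (0.34% of tested) were called, 33 higher (0.197%) and 24 lower (0.143%) at 30 µg/kg. The count was 31, 28 and 34 without mouse 57, 58 and 59, and with library size only 31.8% of the called genes were higher in place of 57.9%. Of the 423 genes called at 10 µg/kg, 13 were among them (3.07%), and 11 of these lay further from vehicle at 30 µg/kg. These included *Cyp1a1* (log2 1.63 ± 0.37 for 30 minus 10, adjusted p = 0.0473), *Ahrr* (0.97, adjusted p = 0.000871), *Agpat3* (0.90, adjusted p = 0.000871), *Cyp27a1* (1.28, adjusted p = 0.0234), *Duoxa2* (-2.21, adjusted p = 0.0134), *Dusp6* (-1.65, adjusted p = 0.0134), *Itgam* (-0.99, adjusted p = 0.0228) and *Ifit1bl1* (-1.34, adjusted p = 0.0217). *Cyp1b1* was not called (0.75 ± 0.23, adjusted p = 0.161). *Ms4a2* moved back towards vehicle, at 0.201 CPM on average at 30 µg/kg against 2.44 log2 units of induction at 10 µg/kg (log2 -3.76 ± 0.74, adjusted p = 0.0231). The tuft markers also had negative differences, of -1.02 for *Dclk1* (adjusted p = 0.0701), -1.12 for *Trpm5* (adjusted p = 0.067) and -1.02 for *Avil* (adjusted p = 0.116), none of which passed the test. Their summed level was 97.8, 110 and 79.5 CPM at 30 µg/kg and 100, 84.1 and 89.9 CPM at 3 µg/kg, so that mouse 58 at 105 CPM lay within the range of these groups and mice 57 and 59 above all other mice of the series.

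**Figure D5:**
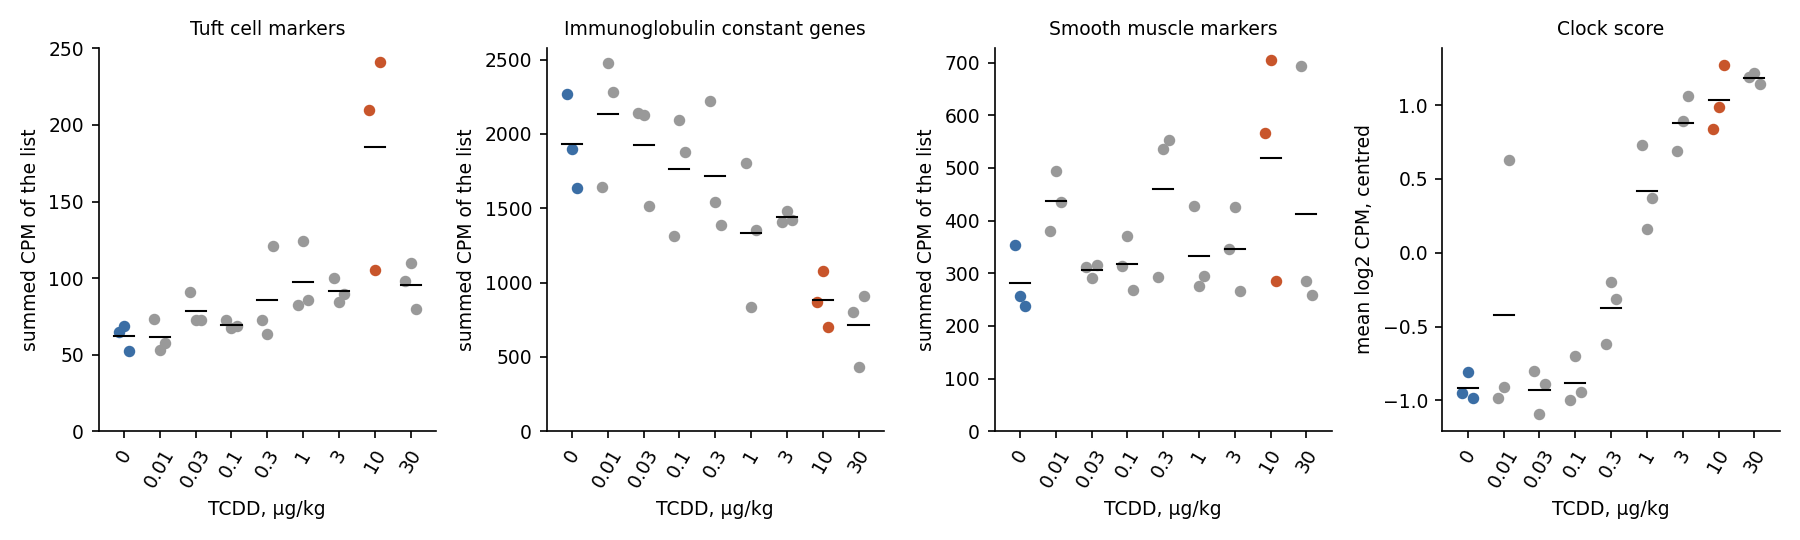
Each point is 1 of the 27 mice, placed by dose of TCDD in µg/kg, with black lines for group means, vehicle in blue and 10 µg/kg in orange; the y axes give the summed CPM of the tuft cell, immunoglobulin constant and smooth muscle lists, and the clock score. Tuft markers are highest in mice 57 and 59 at 10 µg/kg, and smooth muscle markers vary within groups. The immunoglobulin constant genes of the treated mice (703 to 1080 CPM) lie below the vehicle mice (1639 to 2268 CPM). The clock score is 0.84 to 1.27 at 10 µg/kg and -0.98 to -0.81 in vehicle mice. It is the mean over 11 clock genes of log2 CPM, centred and divided by each gene's standard deviation, with activators counted in reverse. The axis label leaves out this division.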

How the data were processed

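RNA-Seq counts of ileal epithelium scrapings from 27 mice were used, 3 per group in 9 groups. Per the labels and the study's methods, the authors checked reads with FastQC 0.11.3, trimmed adaptors with Trimmomatic 0.33, aligned with TopHat2 2.1.0 to GRCm38 and deposited raw counts per Ensembl gene, with HTSeq 0.6.1 and SAMtools 1.2.0 named in the submitters' processing notes; strand and multi-mapping options are not given in the sources used here. Rows that name no gene were removed; reads outside genes made up 45.38 to 46.36% of counted reads under vehicle and 46.89 to 49.52% under TCDD, and ambiguous reads 0.72 to 0.97%. Replicate libraries differed beyond sampling noise. The paper describes fewer cages per treatment group than the 3 mice sequenced, so some mice of each group must have shared a cage. Which mice did so is not given in the sources used here. Replicates are therefore not independent of cage. The cages were kept by treatment group, so cage cannot be separated from dose, and its part in the differences was not tested. Depth limits low genes, and intervals cover counting error only.

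Genes were filtered with filterByExpr, scaled by TMM and tested with edgeR 4.0.16 (glmQLFit, glmQLFTest; R 4.3.3) over all 27 mice with group as the only term. Genes were called at 0.05 for the adjusted p and 1.5 for the fold change; this replaces the study's P1(t) criterion, which could not be recomputed. The test was checked on simulated data. Alternatives covered scaling, filtering, DESeq2 1.42.0, covariates and leaving out each mouse. For the clock score, the log2 CPM of each of 11 clock genes was centred and divided by its standard deviation over the 27 mice. The score was the mean of these values, with *Arntl*, *Npas2* and *Clock* counted with opposite sign, and is not in log2 units. Genes were named by rule: the 10 largest changes per direction among called genes with no overlap between groups and a mean of at least 1 CPM, the anchor genes and up to 5 called members of each list, and the 5 called genes of highest level per direction; others were named after their values were seen, as the text says or, for the *Ugt1a* locus, *Ighm*, *Ighd*, *Ighg1*, *Ighg3*, *Ms4a1*, *Hlf*, *Pou2f3*, *Alox5ap*, *Ptgs1*, *Gfi1b*, *Il25*, the PPARA targets and the genes of the comparisons with 3 and 30 µg/kg, as said here. Some genes that the rule selects are not reported here. The comparison, lists and rules were chosen with earlier results of these data known. Annotation was GENCODE M21 and promoters were RefSeq's; 45143 of 46078 gene identifiers had a symbol.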

Additional observations from a re-analysis of the deposited data

How the results depend on the processing

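The count of 423 called genes was 431 with upper-quartile scaling, 380 with library size only, 526 with DESeq2, 523 with no filter on low counts, 363 with at least 10 counts in every mouse and 366 with only the 6 mice, and 412 of the genes were shared with DESeq2. It was 636 with no fold limit, 52 when glmTreat tested against 1.5-fold, 48 after adjusting for index use and 4 after adjusting for the clock score. Leaving out each mouse gave 208 to 450 genes. Fewer mice were compared in those fits, and the other causes were not tested. The induced share was 69.5%, and 63.4% with library size only, which moved the median of all genes to -0.049. The 4 genes left with the clock score were *Ahrr*, *Cyp1a1*, *Cyp1b1* and *Dgkh*; with it the log2 fold changes of 11 of the 101 named called genes changed sign, to 0.07 for *Arntl*, -0.11 for *Ciart*, 0.21 for *Cry1*, 0.11 for *Ifit1bl1*, 0.24 for *Muc13*, 0.62 for *Nfil3*, 0.21 for *Npas2*, -0.34 for *Per1*, -0.02 for *Scin*, -0.58 for *Slc2a5*, -0.06 for *Trib3*. The clock score contains clock genes named here and follows dose, so that this fit removes their change by construction. Of 101 named called genes, 60 to 88 kept their call with a mouse left out, 94 with library size only and 19 with index use. Between 30 and 10 µg/kg the 57 genes became 66 with library size only, with 31.8% higher in place of 57.9%, and 28 to 34 without a mouse at 10 µg/kg. Between 10 and 3 µg/kg the 7 genes became 6 to 18 without a mouse and 6 with library size only. No paired analysis was possible because the mouse numbers in the labels are not shared between groups.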

Other observations

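Cell division and energy genes were not called at 10 µg/kg. None of 32 tested genes of the cell cycle and DNA replication was called by edgeR or DESeq2, with 1 at an unadjusted p under 0.05, and *Mki67* had 249, 191 and 254 CPM in vehicle mice and 214, 213 and 171 CPM in treated mice. None of 87 tested nuclear genes of oxidative phosphorylation was called by edgeR or DESeq2, with 10 at an unadjusted p under 0.05 (2905 of all 16741 tested genes were). These nuclear genes summed to 6680 to 7003 CPM in vehicle mice and 6489 to 6644 CPM in treated mice, and 19 lay entirely below (11.8% of all tested genes did). Transcripts of the mitochondrial genome summed to 12879 to 14387 CPM in vehicle mice and 15934 to 18257 CPM in treated mice, with none of the 10 tested genes called by edgeR or DESeq2, 7 at an unadjusted p under 0.05 and 6 entirely above (11.5% of all tested genes did).

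None of 17 tested regional identity factors was called by edgeR or DESeq2, with 3 at an unadjusted p under 0.05. Among the PPARA targets, *Ppara* (log2 0.53, adjusted p = 0.0121), *Ucp2* (0.40, adjusted p = 0.0162), *Acadl* (-0.45, adjusted p = 0.0455) and *Hadha* (-0.29, adjusted p = 0.0351) passed the adjusted p but not the fold limit.

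The clock score of mouse 14, in the 0.01 µg/kg group, was 0.63, against -0.98 and -0.91 in the other 2 mice of that group. At 3 µg/kg the score was 0.69 to 1.06 and at 30 µg/kg 1.14 to 1.22.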
